A study of Mus musculus with 24 samples.

Results

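F-box genes were read in single ovulated mouse oocytes, with the mouse Fbxw genes that sit side by side on chromosome 9 set against the conserved members of the family. Members were the table entries whose symbol begins with Fbxl, Fbxo or Fbxw followed by a number, with 1 symbol left out by the same rule. This gave 75 of 25965 entries. Of these, 12 were clustered Fbxw genes (Fbxw13, Fbxw14, Fbxw15, Fbxw16, Fbxw18, Fbxw19, Fbxw20, Fbxw21, Fbxw22, Fbxw24, Fbxw26 and Fbxw28). A further 62 were conserved genes, 18 Fbxl, 36 Fbxo and 8 Fbxw, and Fbxw17, a lone relative on chromosome 13, was kept apart. The study asked whether raised anti-Müllerian hormone (AMH), a hormone of the granulosa cells of growing follicles, alters the oocyte's transcripts. It compared naturally ovulated oocytes of wild-type mice (Thy1.2-AMH0/0) with those of Thy1.2-AMHTg/0 mice, whose transgene expresses AMH under the Thy1.2 promoter. Values of 11 wild-type and 10 transgenic oocytes were analysed, from 4 adult females of each genotype. A sequencing lane was shared by 1 transgenic and 1 wild-type female, over 4 lanes. The control was 1 library of the kit's control RNA, for which the labels give no tissue. The mice's ages are not given in the labels.

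F-box proteins are the parts of SCF ubiquitin ligases that choose the substrate. The F-box binds Skp1, which docks on the scaffold Cul1, and the RING protein Rbx1 at the far end of the scaffold recruits the enzyme that carries ubiquitin. The family is named by the substrate-binding region of the protein, WD40 repeats in Fbxw, leucine-rich repeats in Fbxl and other folds in Fbxo. In oocytes, timed destruction of proteins through ubiquitin ligases carries meiosis through its arrests, and stored transcripts serve the egg after transcription has stopped.

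Levels are given as RPM, a gene's reads scaled to a library of 1000000 reads, so longer transcripts gather more reads. Levels of different genes are set against each other as RPM per kilobase of exon, and an order by RPM is one of read numbers. The oocyte libraries ranged in depth from 20400000 to 33300000 reads, with a median of 22500000, so that 3 reads equalled 0.0900 to 0.147 RPM. Of 10 oocyte marker genes 9 were at 1 RPM or more in every oocyte. The summed level of 20 cumulus and granulosa genes was 64.2 to 106 RPM. Of these genes 3 were at 1 RPM or more in every oocyte, and Foxl2 had 0 reads in all. The sum of 4 blood genes was at most 0.411 RPM with Hba-a1, Hbb-b1 and Ptprc at 0 reads. Each library is 1 cell, and its values are shares of its own reads. Oocyte C of the transgenic lane-1 female stood apart in the clustered genes. It was also the highest oocyte in 14 of the 48 conserved genes that averaged 1 RPM or more. Differences that move by over 1.5 times without this oocyte are given both ways.

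The 12 clustered genes lay in one row on chromosome 9, all on the minus strand, between 109139454 and 109746089 (GRCm38 coordinates as in the table), a span of 606.636 kb. Promoter sequences, 250 bases before to 50 after the gene start (RefSeq, GRCm38.p6), were matched for 57 of the 75 members and for 10 of the 12 clustered genes. Fbxw13 and Fbxw22 had no entry. Pairs of clustered promoters were 83.5% to 97.0% identical (median 90.9% over 45 pairs). The longest exact run shared by a pair was 41 bases in the median (24 to 169), against 8 bases (at most 15) over 1035 pairs of 46 conserved promoters. All 10 clustered promoters shared the 12-base run AAATCTTTGGCC, which 12 of the 27025 promoters in the RefSeq table held, the other two being Gm40505 and Olfr829. Promoter stretches are printed for the most abundant gene (Fbxw24), the next by RPM (Fbxw28), and a pair with 96.1% identical promoters and very unequal levels (Fbxw18 and Fbxw26). Each stretch runs 5′ to 3′ and ends at the base before the gene start. Capitals mark the shared run and the hexamer CAGCTG.
Fbxw24 (chr9:109626060-109626206, minus strand): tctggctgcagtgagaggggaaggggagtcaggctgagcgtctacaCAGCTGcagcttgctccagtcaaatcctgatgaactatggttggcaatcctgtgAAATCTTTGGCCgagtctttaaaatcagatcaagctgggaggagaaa
Fbxw28 (chr9:109339660-109339801, minus strand): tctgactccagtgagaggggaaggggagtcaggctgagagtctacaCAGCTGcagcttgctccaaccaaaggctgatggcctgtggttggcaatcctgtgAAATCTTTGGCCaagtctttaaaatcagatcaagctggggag
Fbxw18 (chr9:109702701-109702827, minus strand): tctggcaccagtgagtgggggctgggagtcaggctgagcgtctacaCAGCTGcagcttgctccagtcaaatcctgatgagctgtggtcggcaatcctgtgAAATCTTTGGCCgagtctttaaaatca
Fbxw26 (chr9:109746090-109746234, minus strand): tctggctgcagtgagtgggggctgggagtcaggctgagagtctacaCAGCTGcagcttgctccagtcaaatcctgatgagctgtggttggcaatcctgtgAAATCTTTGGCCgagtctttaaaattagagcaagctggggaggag

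CAGCTG, a palindrome and one form of the E-box CANNTG that basic helix-loop-helix factors such as FIGLA bind, was present in 10 of 10 clustered promoters, in 9 of 46 conserved ones and in 16.1% of all RefSeq promoters. This hexamer was searched after the clustered promoters had been seen. The clustered promoters are also close copies of each other, so the 10 are not independent cases for any motif. The general E-box CANNTG, which includes CAGCTG, was in 10 of 10 clustered and 33 of 46 conserved promoters and in 72.1% of all. The letters TAATTG or TAATTA, the element of the oocyte factor NOBOX, were in 0 of 10 clustered and 4 of 46 conserved promoters and in 12.6% of all. TAATCC, a site of bicoid-type homeobox factors, was in 1 of 10 clustered promoters (Fbxw21), 2 of 46 conserved ones and 7.16% of all. All motifs were searched on both strands, and a match is a description of letters only.

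The coding sequences were close to each other as well. In GENCODE M21 (GRCm38) pairs of the 12 coding sequences were 79.7% to 99.1% identical (median 84.2% over 66 pairs). Fbxw14 and Fbxw28, neighbours in the row, were the pair at 99.1%, and Fbxw22, the next gene along, was 92.3% identical to Fbxw14. The first 90 coding bases are printed for Fbxw24 and for these 3, with capitals where a base differs from Fbxw24. They differ from Fbxw24 at 8 bases each, and those of Fbxw14 and Fbxw28 are the same.
Fbxw24: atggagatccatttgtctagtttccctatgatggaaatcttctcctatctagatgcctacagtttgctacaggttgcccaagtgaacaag
Fbxw14: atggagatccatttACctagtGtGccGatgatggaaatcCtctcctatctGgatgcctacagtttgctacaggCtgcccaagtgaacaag
Fbxw28: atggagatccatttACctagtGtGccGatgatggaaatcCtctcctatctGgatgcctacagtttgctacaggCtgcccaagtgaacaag
Fbxw22: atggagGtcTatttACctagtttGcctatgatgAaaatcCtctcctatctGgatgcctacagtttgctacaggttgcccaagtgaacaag

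This closeness bears on the counts. M21 holds 15 Fbxw genes in this row, 3 of them not among the members, and the transcripts of all 15 were compared. Only 32.4% of the 50-base pieces of the Fbxw14 transcript and 32.9% of those of Fbxw28 occurred in no other gene's transcript. The share was 84.6% to 94.2% for the other 10 clustered members. The sources used here do not say how reads with several matches were counted, so the separate levels of Fbxw14 and Fbxw28 are uncertain. The table's gene ID for Fbxw14 is that of Fbxw28 in M21, and both were matched by symbol and position.

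The clustered genes were abundant in every oocyte and near 0 in the control RNA. All 12 were at 1 RPM or more in all 21 oocytes, and 42.3% of all entries had a mean that high. Of the 12, 10 had a mean of at least 100 RPM, a level that 7.38% of all entries reached. Their summed level was 6455 ± 1161 RPM (SD, n = 21 oocytes of 8 females), from 3472 to 8815 RPM, or 0.646% of all reads. The lowest sum, 3472 RPM, was oocyte C of the transgenic lane-1 female. Its sister oocyte B had 7178 RPM, and the mean without oocyte C was 6604 ± 963 RPM (n = 20). Its oocyte marker sum did not set it apart, at 9688 RPM against 5993 to 14789 RPM over all oocytes. Its library stood out beyond the cluster. Its conserved F-box sum was the highest of the 21 at 4437 RPM. It was the highest oocyte in 14 of 48 conserved genes that averaged 1 RPM or more, and no other oocyte was in more than 6. Its library was the deepest at 33300000 reads and had the most genes with a read (14338). Its sum of 5 brain genes was the lowest at 49.8 RPM. The part of these in its low clustered sum was not tested.

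Fbxw24 led the family. Its level was 2204 ± 411 RPM (SD, n = 21), with 1136 RPM in the lowest oocyte, 2166 RPM in the median one and 2947 RPM in the highest. By read number, not length-corrected, it ranked 36 of all 25965 entries, and it made up 34.1% ± 2.0 of the clustered sum. The lowest oocyte was again oocyte C of the transgenic lane-1 female, and in each of the 21 oocytes Fbxw24 was the highest of the 12. Per kilobase its level was 1481 ± 276 RPM per kb, and the next gene, Fbxw22, reached 349 ± 62.1 RPM per kb.

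Below Fbxw24 the order per kilobase was Fbxw22, Fbxw28, Fbxw18, Fbxw14, Fbxw15, Fbxw20, Fbxw16, Fbxw19, Fbxw21, Fbxw26 and Fbxw13. Fbxw22, Fbxw28 and Fbxw18 lay at 349, 340 and 330 RPM per kb. These neighbours do not differ beyond their spread, since Fbxw22 was above Fbxw28 in 12 of 21 oocytes and Fbxw28 above Fbxw18 in 13. Fbxw16 and Fbxw19, at 160 and 159 RPM per kb, do not either, with Fbxw16 above in 13 of 21. Below Fbxw22, 3 steps held in all 21 oocytes: Fbxw14 above Fbxw15 (298 against 218 RPM per kb), Fbxw19 above Fbxw21 (159 against 66.4) and Fbxw21 above Fbxw26 (66.4 against 13.6). The bottom gene, Fbxw13, at 8.34 RPM per kb, was below Fbxw26 in 19 of 21 oocytes. Exon lengths join all annotated transcripts of a gene, which lowers the per-kilobase value where the coding transcript is shorter. The gap was widest for Fbxw19 (3487 against 1483 bases), Fbxw21 (2448 against 1512) and Fbxw20 (2429 against 1511). It was smaller for Fbxw28 (1951 against 1497), Fbxw14 (2114 against 1786), Fbxw16 (1801 against 1497) and Fbxw13 (1513 against 1485). The other clustered genes had equal lengths. The order below Fbxw24 thus holds for these exon lengths, and one by coding transcript was not computed.

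Fbxw26 and Fbxw13, at 13.6 and 8.34 RPM per kb, were far below the other 10, the lowest of which was Fbxw21 at 66.4 RPM per kb. Fbxw26 ranged from 11.7 RPM to 48.8 RPM over the oocytes with a median of 22.7 RPM, and Fbxw13 from 5.55 RPM to 25.3 RPM with a median of 11.3 RPM. The promoter of Fbxw26 was 96.1% identical to that of Fbxw18 and 94.3% identical to that of Fbxw24, genes at 330 and 1481 RPM per kb against 13.6 RPM per kb for Fbxw26. Close promoter letters were thus found at unequal levels.

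The levels did not follow the position in the row. Fbxw26 is the end gene next to Fbxw18, and Fbxw13 lies between Fbxw21 and Fbxw20, at 66.4 and 185 RPM per kb. The flanking genes are no F-box genes. On one side Plxnb1, a semaphorin receptor, had 5.24 RPM, and on the other Spink8 had 0.0184 RPM and Nme6 5.59 RPM. Within the row 1 entry that is no member, CT025661.1 between Fbxw24 and Fbxw18, had 25.6 RPM in oocytes and no read in the control RNA. It was named after its value was seen.

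**Figure D1:**
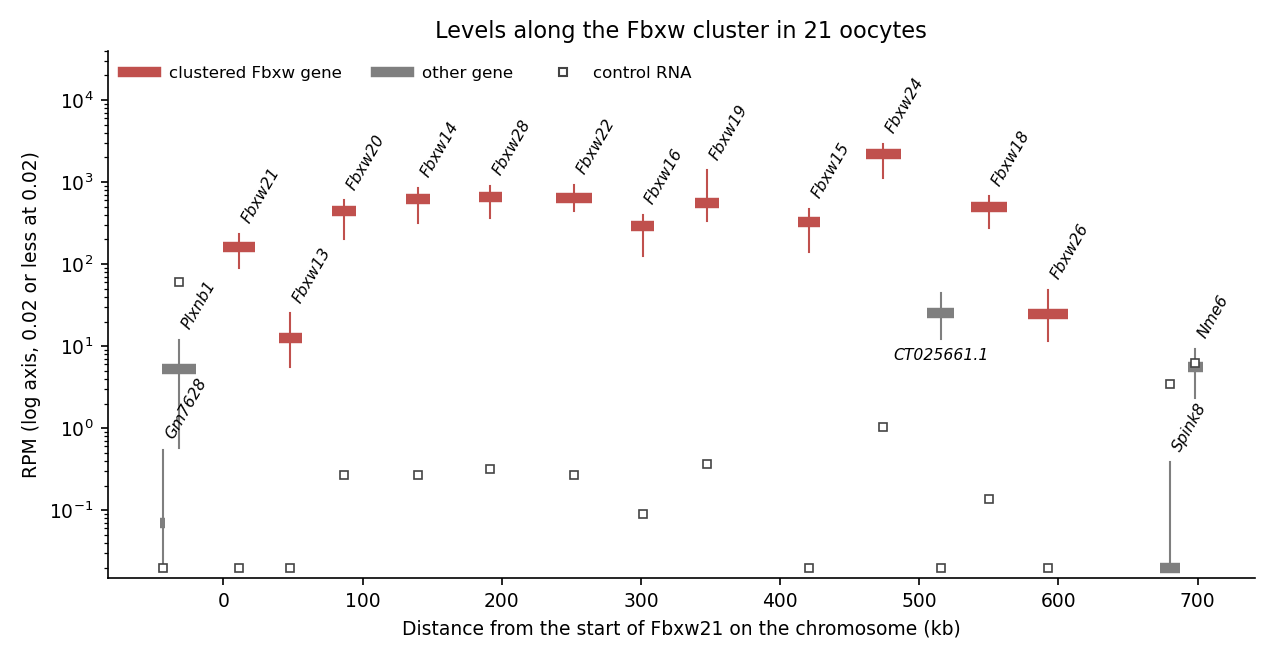
Level of each gene along the Fbxw row in 21 oocytes (y axis, RPM, log scale, values of 0.02 or less drawn at 0.02) against its distance from the start of Fbxw21 (x axis, kb). Bars are means over the extent of the gene, lines run from the lowest to the highest oocyte and open squares are the control RNA; 10 red bars lie above 100 RPM, and Fbxw26 and Fbxw13 lie at 24.7 and 12.6 RPM.

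The clustered genes held 64.0% ± 5.7 (SD, n = 21) of the RPM of all 75 members, from 43.9% to 72.0%, and 80.8% per kilobase. Without oocyte C of the transgenic lane-1 female the share was 65.0% ± 3.4 and its lowest value 58.2%. Among Fbxw genes alone the share was 94.0% ± 1.5. The median level of a clustered gene was 201 RPM per kb, against 1.56 for conserved Fbxw, 2.26 for conserved Fbxl and 2.64 for conserved Fbxo genes. Fbxw17, outside the row, had 5.87 ± 3.72 RPM, and the control RNA held 11.7 RPM of it.

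Of the 62 conserved genes 48 averaged 1 RPM or more, 34 averaged 10 RPM or more and 12 averaged 100 RPM or more, beside the 42.3%, 25.1% and 7.38% of all entries at these levels. Their sum was 3566 ± 368 RPM in oocytes and 3846 RPM in the control RNA. The 14 below 1 RPM were all conserved: Fbxo6, Fbxo44, Fbxo2, Fbxo24, Fbxo41, Fbxo27, Fbxw9, Fbxo48, Fbxw10, Fbxo39, Fbxo4, Fbxl7, Fbxo32 and Fbxl16. They ranged from 0.00223 to 0.955 RPM, and 7 of them had at least 10 RPM in the control RNA.

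Among conserved Fbxw genes 1 was high. Fbxw4, known as dactylin from a limb mutant, had 334 ± 78.9 RPM, from 212 to 490 RPM, and 106 RPM per kb. The next 4 were lower in oocytes than in the control RNA. Fbxw11, a β-TrCP that recognises phosphorylated β-catenin and IκB, had 20.7 ± 10.5 RPM against 216 RPM in the control RNA. Fbxw7, the receptor for cyclin E, had 12.9 ± 2.7 RPM against 141 RPM. Fbxw5 had 11.8 ± 7.7 RPM against 157 RPM, and Fbxw2 had 10.9 ± 3.4 RPM against 96.2 RPM. Per kilobase these 4 were at 1.15 to 4.79 RPM per kb in oocytes.

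The 5 Fbxl genes with the most reads were Fbxl5, Fbxl6, Fbxl20, Fbxl17 and Fbxl2. Fbxl5, which targets the iron regulatory protein IRP2 when iron is plentiful, had 270 ± 84.0 RPM, and Fbxl6 had 258 ± 172 RPM. Fbxl6 varied most of the 5, from 79.8 to 677 RPM, and more between females (SD 0.92 in log2) than between sisters (0.39). The females of lane 4 were the highest, with means of 476 RPM (transgenic) and 618 RPM (wild type). Those of lanes 1 to 3 had 106 to 355 RPM. The part of the lane in this was not tested. Fbxl20 had 164 ± 58.7 RPM, Fbxl17, which checks the pairing of BTB-domain proteins, 124 ± 26.3 RPM, and Fbxl2 46.4 ± 11.3 RPM. Per kilobase Fbxl6 was first, with 119 RPM per kb against 27.7 for Fbxl5. This Fbxl6 mean includes the high lane-4 females, and its median over oocytes was 181 RPM.

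The 5 Fbxo genes with the most reads were Fbxo8, Fbxo34, Fbxo28, Fbxo11 and Fbxo18. Fbxo8, which carries a Sec7 domain, had 414 ± 46.6 RPM and 330 RPM in its lowest oocyte. Fbxo34 had 377 ± 64.1 RPM and Fbxo28 268 ± 41.2 RPM. Fbxo11, a ligase for BCL6, had 171 ± 30.6 RPM, and Fbxo18, the DNA helicase FBH1, 129 ± 51.0 RPM. Per kilobase the order was another: Fbxo34 at 88.1 RPM per kb, Fbxo8 at 75.5, Fbxo5 at 51.0, Fbxo28 at 50.3 and Fbxo11 at 38.9, with Fbxo18 at 25.3. With these exon lengths Fbxl6, Fbxw4 (106 RPM per kb), Fbxo34 and Fbxo8 thus lay above Fbxw21 and below Fbxw19 in the clustered order.

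**Figure D2:**
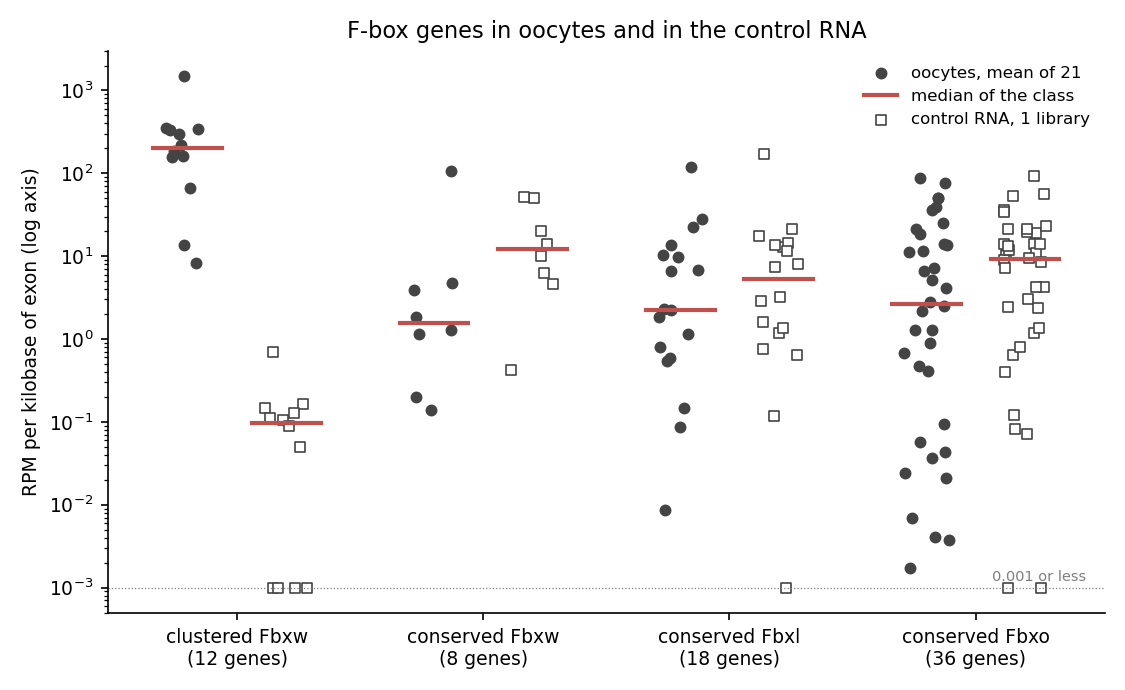
Level of each F-box gene (y axis, RPM per kilobase of exon, log scale, 0.001 or less drawn at 0.001) by class (x axis), as the mean of 21 oocytes (filled circles) and in the 1 control RNA library (open squares); red bars are class medians. The clustered median is 201 in oocytes, and the conserved medians are 1.56 to 2.64.

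Set against the control RNA, all clustered genes were higher in oocytes, while conserved genes lay on both sides. With 1 control library there is no test, and intervals cover counting error only. All 12 clustered genes were at least 10-fold higher in the oocytes, as were 11.5% of the 16105 entries with 1 RPM or more in either. Of 58 conserved genes at that level 6 were at least 10-fold higher and 17 at least 10-fold lower, beside 39.1% of all entries that were lower. The 12 together had 61 reads (2.77 RPM) in the control library, of which Fbxw24 held 37.7%. The 10 oocyte markers had 170 reads (7.71 RPM) there, and the mean oocyte sum was 2332 times the control value for the clustered genes and 1124 times for the markers.

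The ratios of single clustered genes rest on few control reads. They do not order the genes, since 4 of the 12 had 0 control reads and have only a lower bound. Named by rule were Fbxw18, Fbxw16, Fbxw15 and Fbxw22. Fbxw18 was 3677-fold higher on 3 control reads, with an interval of 1258 to 17832, and Fbxw16 3174-fold higher on 2 reads (879 to 26211). Fbxw15 had 0 control reads and was at least 2392-fold higher, computed against 3 reads. Fbxw22 was 2356-fold higher on 6 reads (1082 to 6419).

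The 4 smallest ratios were those of Fbxl16, Fbxo2, Fbxo44 and Fbxo41. Fbxl16 had 619 RPM in the control RNA and 0.0311 RPM in oocytes, with 0.457 RPM in the highest oocyte. Fbxo2, which binds N-glycans, had 118 RPM against 0.00223 RPM. Its neighbour Fbxo44 had 161 RPM against 0.0210 RPM, and Fbxo41 88.8 RPM against 0.0248 RPM. A list of 5 brain genes summed to 12553 RPM in the control RNA and to 49.8 to 90.5 RPM in oocytes.

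The 6 conserved genes that were at least 10-fold higher were named after their values were seen, except Fbxw4 and Fbxo8, described above. Fbxo15, known as a marker of embryonic stem cells, had 45.6 ± 14.6 RPM against 0.408 RPM in the control RNA, a ratio of 112. Fbxo5, the APC/C inhibitor EMI1, had 102 ± 28.7 RPM against 2.36 RPM, a ratio of 43.3. Fbxo40 had 15.5 ± 5.2 RPM against 0.454 RPM, a ratio of 34.2. Fbxl13 had 12.1 ± 1.7 RPM against 0 reads, at least 88.6-fold higher. The ratios of Fbxw4 and Fbxo8 were 22.9 and 17.6, and that of the lowest clustered gene, Fbxw13, was at least 92.7. Between oocytes Fbxl13 varied little, with 9.34 RPM in its lowest and 16.6 RPM in its highest oocyte.

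The clustered genes varied together between oocytes. Over the 21 oocytes the 66 pairs of clustered genes had a median Pearson's r of 0.65 in log2(RPM + 1), from 0.03 to 0.96, and all 66 were above 0. The 66 pairs of the 12 conserved genes at 100 RPM or more had a median of 0.00, with 33 above 0. The most alike pair was Fbxw14 and Fbxw28 (0.96), whose reads may be shared, followed by Fbxw28 and Fbxw24 (0.91). The correlations are descriptions over oocytes that share females, lanes and library scaling. Much of them rested on a few oocytes. Without oocyte C of the transgenic lane-1 female the clustered median was 0.50 with 60 of 66 above 0, and without the wild-type lane-4 female as well it was 0.27 with 54 above 0. The conserved medians in the same oocytes were -0.03 and 0.00.

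**Figure D3:**
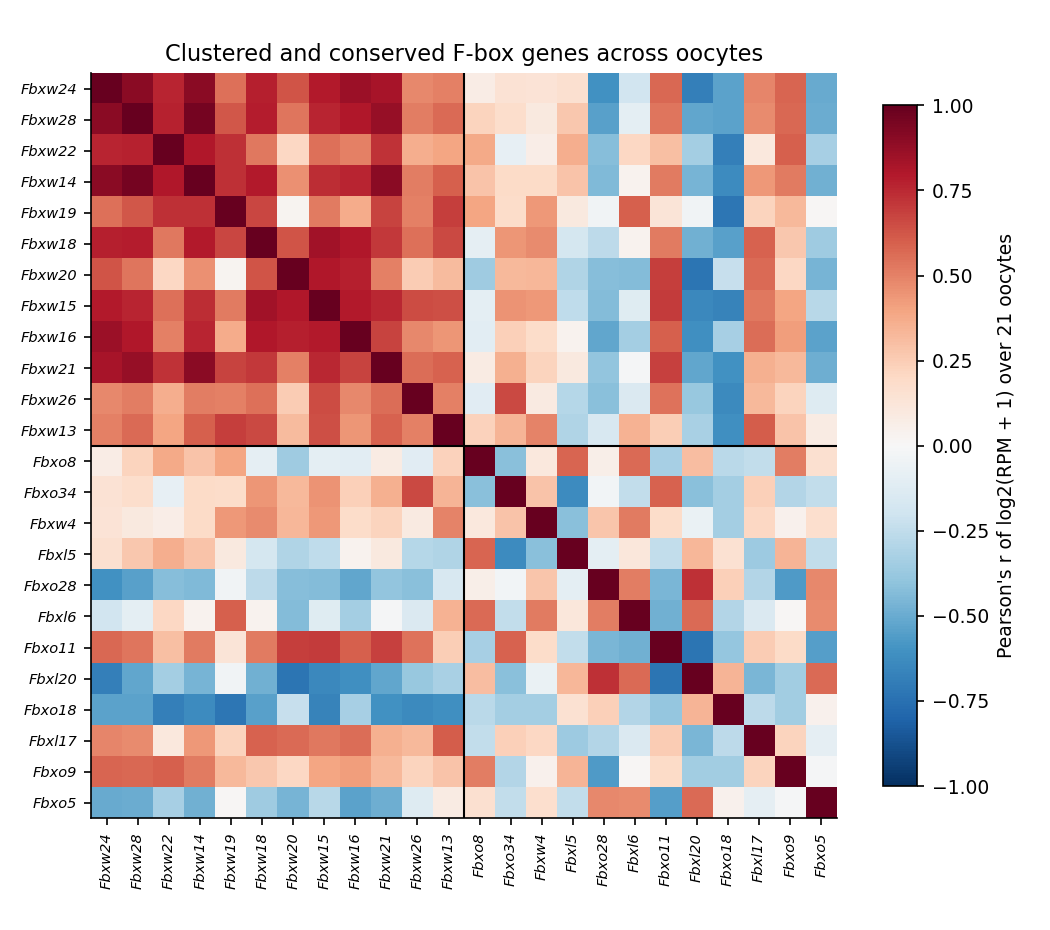
Pearson's r of log2(RPM + 1) over 21 oocytes (colour) between the 12 clustered Fbxw genes (first 12 rows and columns, by level) and the 12 conserved genes at 100 RPM or more. The clustered block has a median r of 0.65 and the conserved block a median of 0.00.

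Sister oocytes differed by about as much in clustered as in conserved genes of like level. The SD between oocytes of a female, in log2(RPM + 1), was 0.29 in the median of 10 clustered genes at 100 RPM or more and 0.29 in 12 conserved genes at that level. It was 0.24 in 1893 other genes at that level. Over all members tested the medians were 0.30 for clustered and 0.43 for conserved genes, and 0.41 for all 10987 genes.

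Between genotypes no F-box gene passed the test. The oocytes of a female were averaged in log2(RPM + 1), and limma compared 4 transgenic with 4 wild-type females over the 10987 genes that averaged 1 RPM or more. Of the 75 members 61 were tested, 12 clustered, 48 conserved and Fbxw17. The number of genes called at an adjusted p under 0.05 was 0 among all genes (0% of those tested) and 0 among members, and limma's smallest adjusted p among members was 0.724. At an unadjusted p under 0.05 there were 4 of 61 members, beside 6.81% of all genes tested, a share near the background. Of these 2 were higher (Fbxl5 and Fbxo38), beside 2.78% of all genes, and 2 lower (Fbxl17 and Fbxw16), beside 4.03%. In each alternative tried the number of members called was 0.

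The clustered genes lay slightly lower in transgenic oocytes without passing. By sign 11 of 12 were lower, beside 52.2% of all genes tested, with a median difference of -0.20 on the log2 scale, against 0.03 for conserved genes and -0.01 for all genes. The split was 11 of 12 in 17 of 19 alternatives. Without oocyte C of the transgenic lane-1 female, its sister kept, 7 of 12 were lower with a median of -0.08. Without the wild-type lane-4 female 8 of 12 were lower with a median of -0.12. Without both oocytes of the transgenic lane-1 female 11 of 12 were lower with a median of -0.13. Of the 12, 3 were lower in all 4 lanes (Fbxw20, Fbxw13 and Fbxw18), beside 10.3% of all genes. The female values of the genotypes overlapped in 12 of 12.

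The clustered sum shows which females carry this. It was 5325, 7134, 6234 and 5856 RPM in the transgenic females of lanes 1 to 4 (6137 ± 762 RPM, SD, n = 4). It was 6314, 6108, 6381 and 8342 RPM in the wild-type females (6786 ± 1044 RPM, n = 4). The transgenic lane-1 female was lowest and the wild-type lane-4 female highest, and the other 6 overlapped. Of the 12 genes 10 were highest in the wild-type lane-4 female and 9 lowest in the transgenic lane-1 female. The wild-type lane-4 female also had the highest oocyte marker sum, 12740 RPM against 6487 to 10836 RPM in the other 7. The part of that in the difference was not tested.

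Fbxw16 had the smallest p of the 12. Its female means were 208, 319, 275 and 207 RPM in transgenic and 312, 296, 314 and 334 RPM in wild-type females of lanes 1 to 4. The transgenic lane-2 female lay within the wild-type values and the others below them. Its difference was -0.36 ± 0.17 (log2, SE) with an adjusted p of 0.726 by limma, lower in 3 of 4 lanes. It was -0.22 without oocyte C of the transgenic lane-1 female.

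Fbxw20 had 307, 454, 449 and 374 RPM in transgenic and 530, 474, 488 and 436 RPM in wild-type females, lower in 4 of 4 lanes with overlap through lane 4. Its difference was -0.33 ± 0.16 with an adjusted p of 0.737 by limma. Fbxw15 differed by -0.32 ± 0.16 (adjusted p 0.743) and Fbxw13 by -0.46 ± 0.26 (adjusted p 0.764). Neither passed, and the female values of the genotypes overlapped in both. Without oocyte C of the transgenic lane-1 female Fbxw20 differed by -0.20 and Fbxw15 by -0.16, and without the whole female by -0.19 and -0.21. Fbxw13 had 8.22, 11.2, 10.2 and 12.3 RPM in transgenic and 11.2, 12.4, 13.0 and 24.95 RPM in wild-type females. Its highest value was that of the wild-type lane-4 female, without which it differed by -0.21.

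Fbxw24 differed by -0.15 ± 0.15 with an adjusted p of 0.835 by limma. It differed by -0.02 without oocyte C of the transgenic lane-1 female, and by -0.26 to -0.05 when 1 female was left out. It had 1763, 2607, 2074 and 1960 RPM in transgenic and 2208, 2101, 2258 and 2550 RPM in wild-type females. The highest and the lowest of the 8 were both transgenic, in lanes 2 and 1. Fbxw22 was the 1 gene higher in transgenic oocytes, by 0.07 ± 0.15, or by 0.16 without oocyte C of the transgenic lane-1 female. Fbxw14, Fbxw19, Fbxw21 and Fbxw28 had differences of -0.13, -0.11, -0.10 and -0.11, whose signs turned without that oocyte, to 0.04, 0.01, 0.03 and 0.02. Fbxw18 differed by -0.25, and by -0.13 without it. Fbxw26 differed by -0.42 ± 0.26 (adjusted p 0.764 by limma), and by -0.59 to -0.23 over the alternatives. Its lane-4 females had 17.4 RPM (transgenic) and 41.3 RPM (wild type), and the female values of the genotypes overlapped.

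Fbxw19 showed the widest female. Its means were 525, 542, 476 and 581 RPM in transgenic and 444, 424, 433 and 1243 RPM in wild-type females. The wild-type lane-4 female had 1096 and 1390 RPM in its 2 oocytes, and no other oocyte was above 765 RPM. Transgenic females were higher in lanes 1, 2 and 3 and lower in lane 4.

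**Figure D4:**
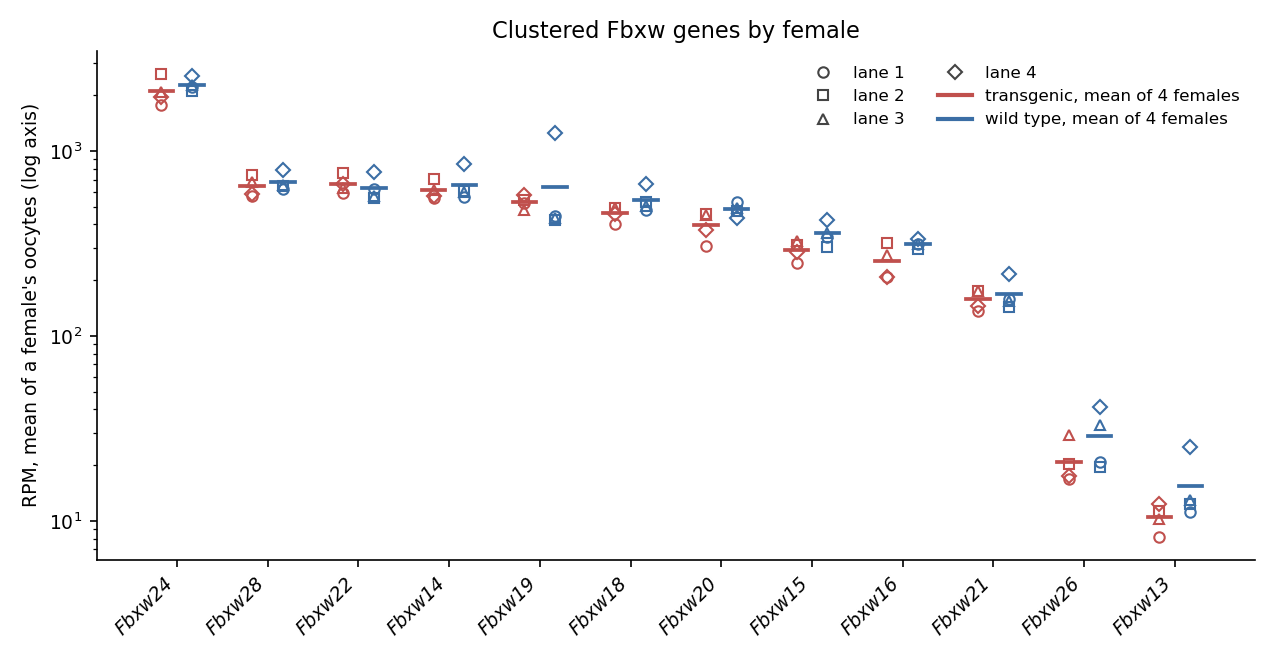
Female means of the 12 clustered genes (y axis, RPM, log scale) for transgenic (red) and wild-type (blue) females, with a symbol for each lane and a bar for the mean of 4 females. The groups overlap in every gene, and Fbxw19 in the wild-type lane-4 female stands at 1243 RPM.

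Conserved genes split evenly between the genotypes. Of 48 tested 25 were higher and 23 lower in transgenic oocytes. In all 4 lanes 3 were higher, beside 7.97% of all genes, and 4 lower, beside 10.3%. Fbxl5 had the smallest p of all members. It had 372, 371, 286 and 239 RPM in transgenic and 215, 253, 210 and 223 RPM in wild-type females of lanes 1 to 4. Transgenic values were higher in 4 of 4 lanes, and the transgenic lane-4 value lay below the wild-type lane-2 value. The difference was 0.45 ± 0.16 (log2, SE) with an adjusted p of 0.724 by limma.

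Fbxl17 had 88.3, 115, 115 and 110 RPM in transgenic and 122, 157, 131 and 144 RPM in wild-type females. The groups did not overlap, which held for 2 of 48 conserved genes (Fbxl17 and Fbxo36, both lower), beside 2.64% of all genes tested for this direction. The difference was -0.37 ± 0.15 with an adjusted p of 0.724. Fbxo36 had 3.69 to 4.26 RPM in transgenic and 4.69 to 12.9 RPM in wild-type females, a difference of -0.62 ± 0.30 (adjusted p 0.737). Its highest value was again that of the wild-type lane-4 female, without which it differed by -0.31.

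Fbxo38 had 20.5, 10.9, 17.6 and 12.8 RPM in transgenic and 9.33, 8.91, 9.14 and 12.8 RPM in wild-type females. It was higher in 3 of 4 lanes, by 0.52 ± 0.24 overall (adjusted p 0.730 by limma). Other genes named by smallest p, all higher in transgenic means, were Fbxl4 (0.41 ± 0.23), Fbxl20 (0.30 ± 0.21) and Fbxo21 (0.28 ± 0.24). Fbxl20 and Fbxo21 were highest in the transgenic lane-1 female, at 286 and 168 RPM, and the other 7 females lay at 122 to 178 and 52.0 to 83.1 RPM. Without that female they differed by 0.10 and 0.03, and without its oocyte C by 0.19 and 0.04. Without the transgenic lane-2 female Fbxo21 differed by 0.50.

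**Figure D5:**
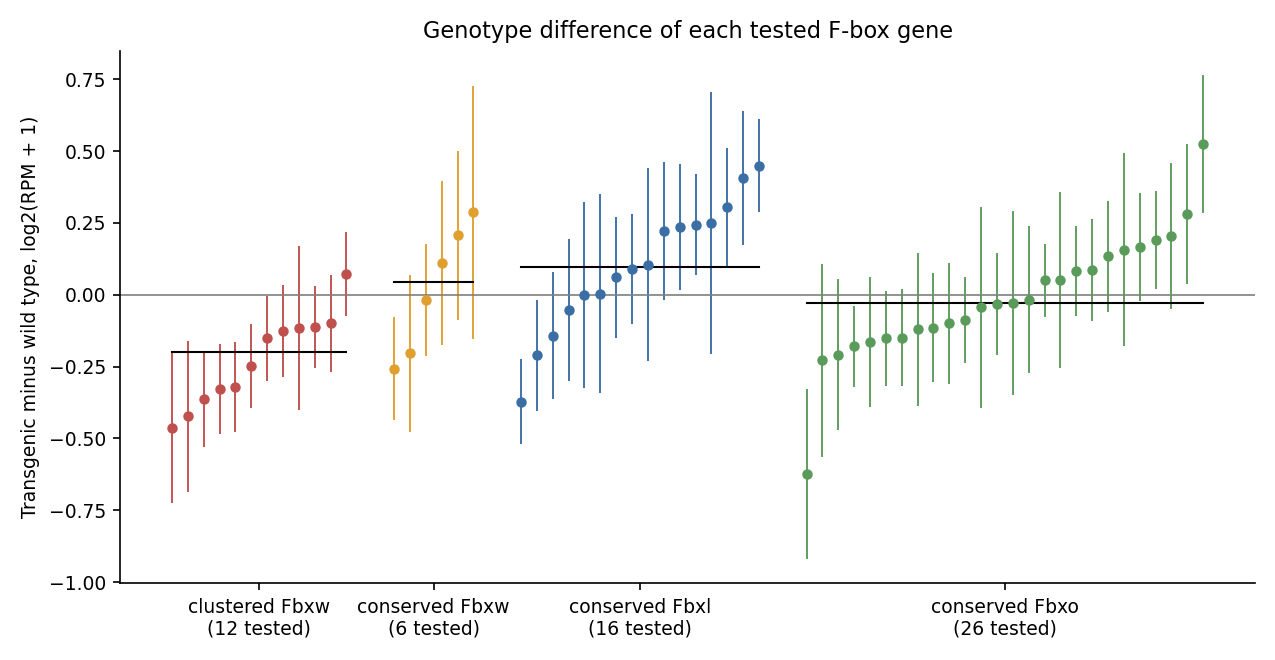
Transgenic minus wild type in log2(RPM + 1) for each tested F-box gene of the 4 classes (y axis), ordered within its class (x axis), with bars of 1 SE over 4 against 4 females and black lines for class medians. The clustered median is -0.20, and -0.08 without oocyte C of the transgenic lane-1 female; adjusted p under 0.05 was reached by 0 genes.

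Of the other parts of the ligase, Cul1, Skp1a and Rbx1 were present in oocytes at high levels. Rnf7 and Cul7, listed with them, were low at 4.49 and 0.118 RPM. Cul1, the scaffold, had 1861 RPM (461 RPM per kb), Skp1a, the adaptor that binds the F-box, 754 RPM (341 RPM per kb) and Rbx1, the RING protein, 302 RPM (66.5 RPM per kb). Of the F-box proteins outside the symbol rule, Kdm2b had 9.16 RPM per kb, Btrc, the second β-TrCP, 2.19, Kdm2a 1.02, cyclin F (Ccnf) 0.767 and Skp2 0.290 RPM per kb. Of 9 tested genes of this core 4 were higher and 5 lower in transgenic oocytes, with 0 passing and a median of -0.06 against -0.01 for all genes.

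Skp1a had the smallest p of the core. It had 482, 793, 689 and 640 RPM in transgenic and 846, 749, 855 and 893 RPM in wild-type females. The transgenic lane-2 value lay above the wild-type lane-2 value and the others lay below every wild-type value. The difference was -0.38 ± 0.16 with an adjusted p of 0.724 by limma. Rbx1 differed by -0.40 ± 0.20 (adjusted p 0.749) and Skp2, with 1.40 to 3.85 RPM per female, by 0.32 ± 0.27 (adjusted p 0.817). Without the transgenic lane-1 female Skp1a differed by -0.23 and Rbx1 by -0.21, and without its oocyte C Skp2 differed by 0.12. When 1 female was left out Skp2 ranged from 0.20 (wild-type lane 1) to 0.51 (transgenic lane 3).

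The regulators of the ligase were the Nedd8 pathway, the COP9 signalosome and ubiquitin-loading enzymes. Of 28 tested 9 were higher and 19 lower, beside 52.2% of all genes tested that were lower. None passed, and the median was -0.06 against -0.01 for all genes. Nedd8, the modifier that activates cullins, had 19.4, 23.6, 36.3 and 31.0 RPM in transgenic and 34.2, 33.9, 35.3 and 95.8 RPM in wild-type females. Its difference of -0.73 ± 0.32 (adjusted p 0.724) included the wild-type lane-4 value, which was far above the other 7, and was -0.36 without it. Dcun1d2, a neddylation co-factor, differed by 0.42 ± 0.18 (adjusted p 0.724) and Cops5, the signalosome's protease subunit, by -0.39 ± 0.21 (adjusted p 0.764), or -0.24 without the wild-type lane-4 female.

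Of 19 tested transcripts of known F-box substrates 15 were higher and 4 lower, with 0 passing and a median of 0.18, beside 5254 higher and 5733 lower of all genes tested. This split was not recounted in the alternatives, and it includes differences near 0, as in Cdc25a (0.004) and Wee1 (0.014). The ligases act on the proteins, which were not measured. Rrm2, a ribonucleotide reductase subunit, had 202, 187, 140 and 160 RPM in transgenic and 123, 136, 128 and 124 RPM in wild-type females. The 4 transgenic values were all above the wild-type ones, as in 1.67% of all genes tested, and the difference was 0.40 ± 0.15 with an adjusted p of 0.724 by limma. β-catenin (Ctnnb1) differed by 0.31 ± 0.18 (adjusted p 0.764), and Ccnd1, at 0.564 to 2.67 RPM per female, by 0.44 ± 0.27 (adjusted p 0.764). Without the wild-type lane-4 female they differed by 0.18 and 0.26, and without the transgenic lane-1 female Ctnnb1 differed by 0.19. With pseudocounts of 0.1 and 5 RPM Ccnd1 differed by 0.83 and 0.15.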

How the data were processed

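Single oocytes were lysed and amplified with SMART-Seq v4, and libraries made with ThruPLEX, per the labels' protocols. The tools HISAT2, FastQC and Trim Galore and the builds GRCm39 and mm39 are named, with no role, per the submitters' processing notes, while the table's coordinates match GRCm38. No counting tool, annotation or strand setting is named in the sources used here. The deposited values are log2 values the authors made per library. They are described as RPKM but equal log2 RPM with no length division: genes with no read sit at the value that 0.9 reads would have, and 100% of 256342 values under 2000 reads came out whole to within 0.02. RPM was computed from these reads, with genes without reads at 0.

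Exon lengths and coding sequences came from GENCODE M21 by symbol and position (75 of 75 members), promoters from RefSeq (GRCm38.p6). The labels list 24 samples. The water-only library and 1 transgenic oocyte are not analysed here.

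Replicates were females. A two-sided limma 3.58.1 test in R 4.3.3 (eBayes with trend) was run on female means of log2(RPM + 1), a scale on which changes of low genes look smaller, and p-values were adjusted by Benjamini-Hochberg over all 10987 genes tested. The test was also run on simulated data, with planted changes far larger than the differences described here. That run does not show whether differences of this size would be found. As the values were deposited as log2, a fit on counts was run only as an alternative, with voom on the recovered reads summed per female. The lane pairs the females, per the labels: deviations of lane mates correlated across genes at -0.040, 0.084, 0.34 and 0.32, against a median of -0.055 for other pairs. Counting intervals and limits cover counting error only.

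Members and gene lists were chosen with earlier results of these data known. Named are every clustered gene, the 5 highest conserved genes of each class, up to 6 tested members per direction by smallest p, up to 4 per direction with the largest or smallest ratio to the control RNA, and up to 3 genes of each list with the smallest p. Other names are marked as chosen after their values were seen, or complete a list. 1 gene that the rule names is not reported here. Alternatives changed the pseudocount, the minimum level, scaling, the fit (voom), the replicate unit and block, and the females. They were planned, except for leaving out oocyte C of the transgenic lane-1 female. That step and the hexamer CAGCTG were chosen after seeing the data.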

Additional observations from a re-analysis of the deposited data

Results flagged for a closer look

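For each named gene the 4 females of a genotype were examined for 1 far from the others, relative to the range of the 4 on the log2 scale. Chance flags about 1 in 20 groups, and 12 of 90 groups were flagged.

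In the wild-type lane-4 female Fbxw13 had 24.95 RPM against 11.2 to 13.0 RPM in the others, Fbxw14 851 RPM against 562 to 605 RPM, and Fbxw19 1243 RPM against 424 to 444 RPM. The same female was high in Nedd8, with 95.8 RPM against 33.9 to 35.3 RPM, and low in Ctnnb1, with 260 RPM against 375 to 388 RPM. In each of these 5 genes both of its oocytes lay beyond the means of the other wild-type females on the same side.

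Fbxo11 was low in the wild-type lane-2 female, at 151 RPM against 183 to 184 RPM, and Fbxw4 was high in the transgenic lane-4 female, at 413 RPM against 271 to 287 RPM. Cops5 was high in the transgenic lane-3 female, at 26.8 RPM against 19.0 to 19.5 RPM.

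The remaining 4 are single oocytes with reads of a gene that is near 0 elsewhere. They are Fbxo2 at 0.0156 RPM in the transgenic lane-2 female, Fbxo44 at 0.180 RPM in the transgenic lane-1 female and at 0.0195 RPM in the wild-type lane-4 female, and Fbxo41 at 0.0129 RPM in the wild-type lane-1 female.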

How the results depend on the processing

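The number of members that passed was 0 under all 19 alternatives, with limma's smallest adjusted p among members between 0.137 and 0.999. Over all genes 12 were called by the fit of single oocytes with a random effect of female and lane as replicate block, 2 with single oocytes taken as independent, and 0 to 1 when a female was left out (1 without the transgenic lane-1 female). With the lane as replicate block on female means it was 0, with 1028 genes at an unadjusted p under 0.05 against 748 without it. The paired fits changed no call of a member. Of 29 genes with a named genotype difference 4 changed sign, all of them clustered. With a female left out the difference ran from -0.17 to 0.030 for Fbxw21, from -0.21 to 0.0072 for Fbxw14 and from -0.25 to 0.27 for Fbxw19, the highest each time without the wild-type lane-4 female. Without oocyte C of the transgenic lane-1 female the difference was 0.026 for Fbxw21, 0.036 for Fbxw14, 0.023 for Fbxw28 and 0.0068 for Fbxw19. Quantile normalisation turned the split of all genes to 5638 higher and 5349 lower, and left 11 of 12 clustered genes lower. The clustered share of F-box RPM moved from 64.0% to 80.8% per kilobase of exon. Depth limits genes near 0: 3 reads equal 0.0900 to 0.147 RPM. With 4 females a genotype, differences larger than the SD between females were also not called. Fbxl5 differed by 0.45 with an SD between females of 0.24, and Fbxl17 by -0.37 with an SD of 0.17. A gene that did not pass may thus still differ.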
